A study of Mus musculus with 24 samples.

Results

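The expression of 10 genes of T cells, natural killer (NK) cells and other cytotoxic lymphocytes was followed in injured mouse brain. They were chosen by symbol from the deposited table and are Cd3d, Cd3e, Cd3g, Cd8a, Cd4, Cd2, Lck, Nkg7, Gzmb and Gzma, 10 of the 36333 genes listed. RNA of the brain quadrant around the lesion was sequenced at 5 days post injury (5 dpi) from 24 male C57BL/6 mice aged 12 to 16 weeks, with 1 library per mouse. The sample labels name the substrain C57BL6N, whereas the methods name C57BL/6JRj. Cortex is the only tissue on the labels, but by the methods the piece also held striatum, thalamus and the dorsal part of the hippocampus. Traumatic brain injury (TBI) was made by controlled cortical impact, and 5 mice each then received vehicle (control chow and saline), PLX3397 (chow with 290 mg/kg and saline), Anakinra (control chow and injections of 100 mg/kg) or PLX3397+Anakinra. The 4 sham mice received the vehicle treatment after a skin incision without opening of the skull, so that sham differs from TBI by the craniotomy as well as by the impact. PLX3397 inhibits the kinase receptor CSF1R on which microglia depend, and Anakinra blocks the interleukin-1 receptor IL1R1. Only the mouse numbers of the vehicle group carry the letter B, and if that marks a batch, batch and group cannot be told apart.

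T cells recognise antigen through a receptor whose signal is carried by the CD3 chains, helped by the co-receptors CD4 or CD8, and passed on by the kinase LCK. Cytotoxic T cells and NK cells kill by releasing granules that hold granzymes. Healthy brain tissue holds few lymphocytes, and these enter from the blood and the meninges after injury.

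Of the 10 genes, Gzma was called against sham in all 4 TBI groups and its relative Gzmb in 1 of them, and the stretch before each start site is shown for that reason. Each sequence is the 150 bases directly upstream of the RefSeq start on GRCm38.p6, read 5′ to 3′ on the strand of the gene. Capitals mark matches, on either strand, to the RUNX core TGTGGT or to the AP-1 site TGAGTCA, which do not overlap each other here.
Gzma, chr13:113100982-113101131, minus strand: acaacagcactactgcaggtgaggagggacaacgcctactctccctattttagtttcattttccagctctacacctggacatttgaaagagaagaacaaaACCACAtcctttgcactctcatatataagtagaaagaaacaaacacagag
Gzmb, chr14:56262335-56262484, minus strand: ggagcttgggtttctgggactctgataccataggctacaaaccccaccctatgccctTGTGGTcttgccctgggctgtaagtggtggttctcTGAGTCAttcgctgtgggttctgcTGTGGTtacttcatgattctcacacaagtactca
Gzma held 1 match and Gzmb held 3. Of the 32851 promoter windows of this length, 8.40% held the RUNX core and 2.84% the AP-1 site on either strand. The ETS core AGGAAG (19.7% of windows) and the CRE site TGACGTCA (1.36%) were searched as well and are not in either stretch. These matches are descriptions of the letters and not binding sites. The table of promoters has no entry for Cd2 and Cd4.

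Most of these genes were near the limit of detection. Values are given as TPM, a measure that takes account of gene length and library size and allows levels of different genes to be compared. The TPM could be turned back into whole reads, with 22366394 to 31541213 reads per library. Averaged over the 24 libraries, Cd4 stood at 17.1 TPM and Lck at 1.37 TPM, whereas the other 8 genes lay between 0.0562 TPM for Cd3d and 0.408 TPM for Gzma. The 8 low genes rested on 16 reads (Cd3d) to 71 reads (Gzma) in all 24 libraries together. No library held more than 11 reads of any of them, and 1 read of Gzma in a sham library was worth 0.146 TPM on average. By contrast, every library held at least 391 reads of Cd4 and at least 16 reads of Lck. Among the 28322 genes detected, Cd4 ranked above 69.1% and Lck above 46.5%, and the low genes above 19.05% (Cd3d) to 37.4% (Gzma). Intervals given for reads cover counting error only.

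**Figure D1:**
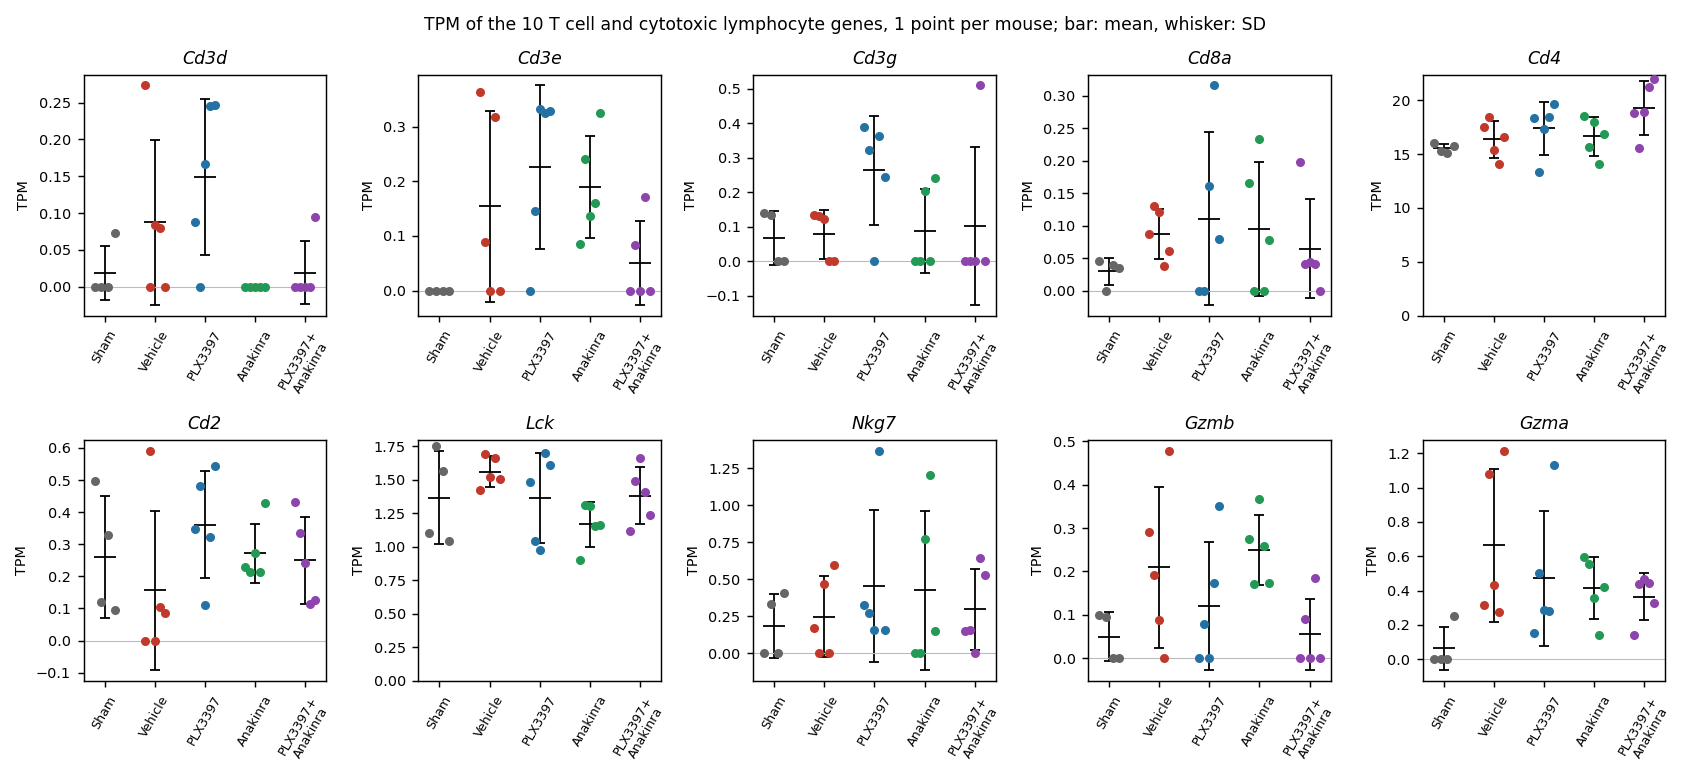
TPM of each of the 10 genes (y axis, a separate linear scale per gene) in the 5 groups, with 1 point per mouse, the mean as a bar and the SD as whiskers. Cd4 lies between 13.3 and 21.97 TPM and Lck between 0.899 and 1.76 TPM in all libraries, whereas Cd3e is at 0 in all 4 sham libraries.

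**Figure D2:**
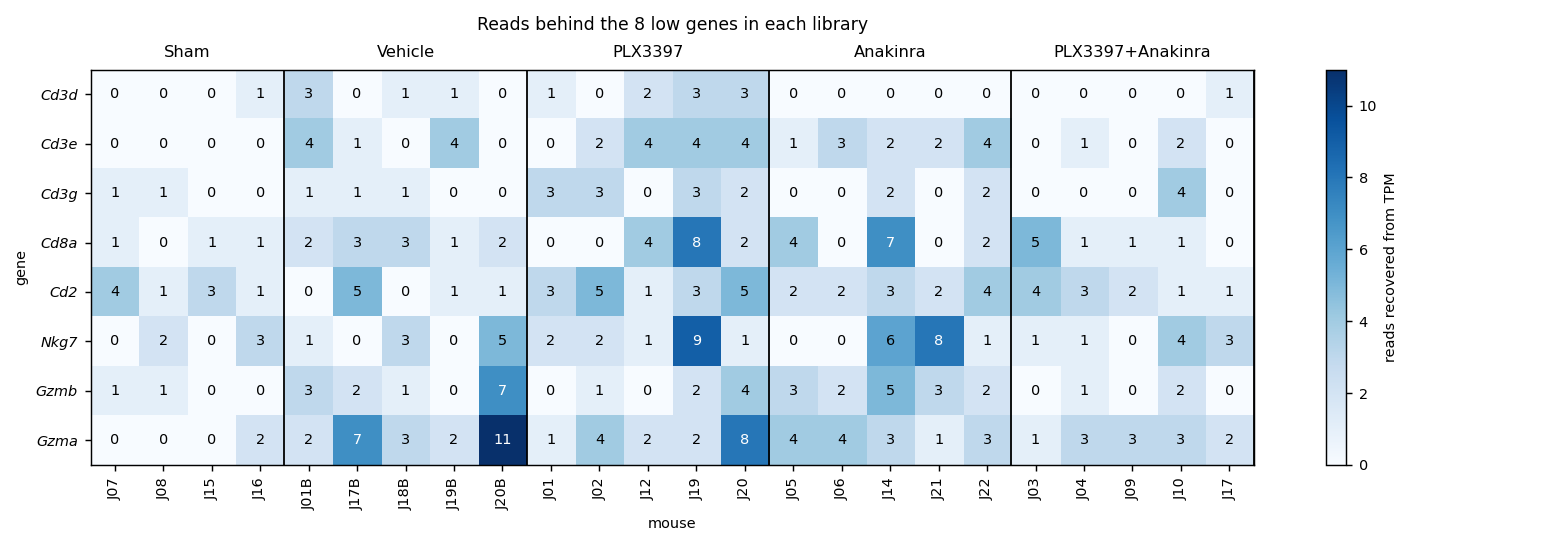
Whole reads recovered from the TPM for the 8 low genes (rows) in each mouse (columns, ordered by group), with the number printed in each cell and darker blue for more reads. The highest number is 11 reads of Gzma in vehicle mouse J20B, and many cells hold 0.

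Differences between groups were tested in limma on log2(TPM + 0.1), with all 24 libraries in one fit. A gene was called at a Benjamini-Hochberg adjusted p below 0.05 over the 21431 genes whose mean over the libraries reached 0.1 TPM. Of the 10 genes, 8 passed this filter, while Cd3d and Cd8a fell below it and were compared by exact permutation only. Against sham, 1 of the 8 tested genes was called in the vehicle group (Gzma), where 44.9% of all genes tested were called. With PLX3397, 2 were called (Gzma and Cd3e), against 36.8% of all genes. With Anakinra, 3 were called (Gzma, Cd3e and Gzmb), against 44.7% of all genes. With PLX3397+Anakinra, 2 were called (Gzma and Cd4), against 31.4% of all genes. All of these calls were higher after TBI, and each share of members called lay below its background. The 4 comparisons share the sham mice and are not independent of each other. In the F test over all 5 groups 2 of 8 were called (Gzma, adjusted p = 0.0044, and Cd3e, adjusted p = 0.048), against 42.3% of all genes. The F call of Cd3e held in 14 of 32 settings. It was lost with a pseudocount of 1 (adjusted p = 0.085), in limma-voom on the recovered reads (0.089) and without each of 16 of the 24 libraries in turn (0.055 to 0.088). In bulk tissue, fewer cells of a type and less RNA per cell cannot be told apart.

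**Figure D3:**
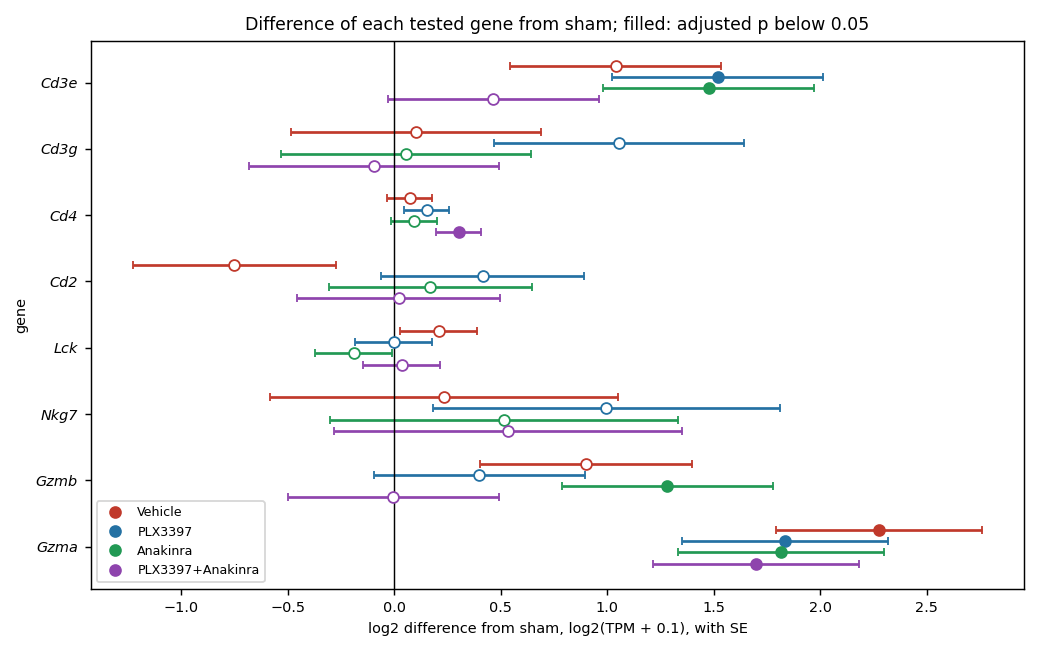
Log2 difference from sham on the log2(TPM + 0.1) scale (x axis) for the 8 tested genes, with SE as whiskers and 1 colour per TBI group. Filled points have an adjusted p below 0.05, which Gzma reaches in all 4 TBI groups with differences of 1.70 to 2.28. The differences of Cd3e rest on a sham group at 0, and those of Gzma on a sham group with reads in 1 mouse. The differences of both genes depend on the pseudocount.

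Gzma encodes granzyme A, a serine protease of cytotoxic granules. It was at 0 TPM in sham mice J07, J08 and J15 and at 0.251 TPM in J16. In the vehicle group it stood at 0.314, 1.08, 0.431, 0.275 and 1.21 TPM. With PLX3397 it stood at 0.151, 0.502, 0.286, 0.281 and 1.13 TPM. All 5 vehicle mice thus lay above every sham mouse, while the PLX3397 group overlapped with sham in 1 mouse. With Anakinra the values were 0.593, 0.555, 0.355, 0.139 and 0.420 TPM. With PLX3397+Anakinra they were 0.141, 0.438, 0.470, 0.446 and 0.327 TPM. Each of the 20 TBI libraries held at least 1 read of Gzma, compared with 1 of 4 sham libraries. The log2 difference from sham was 2.28 in the vehicle group (SE 0.48, limma adjusted p = 0.00037), 1.83 with PLX3397 (SE 0.48, adjusted p = 0.0037), 1.81 with Anakinra (SE 0.48, adjusted p = 0.0032) and 1.70 with PLX3397+Anakinra (SE 0.48, adjusted p = 0.0082). With most sham mice at 0, these differences depend on the pseudocount, which the SE does not cover. Over 33 settings the difference ranged from 0.61 to 4.63 in the vehicle group and from 0.36 to 3.94 with the combination. The exact permutation p against sham, unadjusted, was 0.016 in the vehicle group and 0.032 in each of the other TBI groups. Pooled over the group, 25 reads in vehicle mice against 2 reads in sham mice gave a ratio of 10.2 after scaling to equal depth (exact 95% interval 2.55 to 88.9). With the combination, 12 reads gave a ratio of 5.23 (1.17 to 48.1). The order of the means from vehicle (0.662 ± 0.448 TPM, SD, n = 5) to PLX3397 (0.471 ± 0.391), Anakinra (0.413 ± 0.181) and PLX3397+Anakinra (0.364 ± 0.137) held no difference between TBI groups that passed the test. The combination differed from vehicle by -0.58 (SE 0.46, limma adjusted p = 0.47).

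Gzmb encodes granzyme B, the granule protease that cleaves caspases in target cells. It was found at 0.1002 and 0.0957 TPM in sham mice J07 and J08 and at 0 in the other two. With Anakinra it was found in all 5 mice, at 0.276, 0.172, 0.367, 0.258 and 0.173 TPM. These values did not overlap with sham, and the log2 difference was 1.28 (SE 0.50, limma adjusted p = 0.038). In the vehicle group the values were 0.291, 0.191, 0.0889, 0 and 0.479 TPM, with an adjusted p of 0.15 against sham in limma. With PLX3397 they were 0, 0.0777, 0, 0.174 and 0.351 TPM. With PLX3397+Anakinra they were 0, 0.0904, 0, 0.184 and 0 TPM. Thus 15 reads were found in the Anakinra group and 3 in the combination group. The combination was lower than Anakinra by 1.29 on the log2 scale without passing the test (log2 difference -1.29, SE 0.47, limma adjusted p = 0.086). Leaving out any of the sham mice J15 and J16 or the Anakinra mice J05, J14 and J21 ended the call against sham, with adjusted p between 0.061 and 0.107 in limma.

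The CD3 chains carry the signal of the T cell receptor, and their genes lie side by side on chromosome 9, Cd3g at chr9:44969572-44980431 (minus strand), Cd3d at chr9:44981769-44987052 (plus strand) and Cd3e at chr9:44998735-45009663 (minus strand) in GRCm38.p6. Cd3e had 0 reads in all 4 sham libraries. In the vehicle group it was found at 0.363, 0.0891, 0, 0.318 and 0 TPM. With PLX3397 it stood at 0, 0.145, 0.331, 0.325 and 0.328 TPM. Anakinra was the group in which every mouse held reads, with 0.0858, 0.241, 0.137, 0.161 and 0.324 TPM. With PLX3397+Anakinra the values were 0, 0.0844, 0, 0.172 and 0 TPM. The difference from sham was called with PLX3397 (limma adjusted p = 0.017) and with Anakinra (limma adjusted p = 0.017), and not in the vehicle group (limma adjusted p = 0.093). The exact permutation p, unadjusted, was 0.079 with PLX3397, which overlapped with sham at 0, and 0.016 with Anakinra. The call with PLX3397 thus rests on limma alone. Set against a floor of 3 reads over the whole sham group and scaled to equal depth, PLX3397 (14 reads) gave a ratio of 3.83 and Anakinra (12 reads) of 3.26. The floor covers counting error in sham only. Counting error in the treated groups and spread between mice are left out, so these ratios are not lower limits. The combination held 3 reads in all.

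Cd3g and Cd3d followed with fewer reads. Cd3g had 11 reads with PLX3397, compared with 2 in sham, 3 in vehicle, 4 with Anakinra and 4 with the combination, the last all from mouse J10. Its log2 difference between PLX3397 and sham was 1.05 (SE 0.59, limma adjusted p = 0.17). Cd3d, under the filter, had 9 reads with PLX3397, 5 in vehicle, 1 in sham, 1 with the combination and 0 in all 5 Anakinra libraries. The PLX3397 and Anakinra groups differed in mean TPM of Cd3d at an exact two-sided permutation p = 0.048, unadjusted, and still overlapped at 0. When every gene above 0 in any library was tested, Cd3d was called in PLX3397 against sham (limma adjusted p = 0.044). Summed over the 3 chains, the PLX3397 mice held 4, 5, 6, 10 and 9 reads, the vehicle mice 8, 2, 2, 5 and 0, the Anakinra mice 1, 3, 4, 2 and 6, the combination mice 0, 1, 0, 6 and 1, and the sham mice 1, 1, 0 and 1. All PLX3397 mice lay above all sham mice, and they overlapped with every other TBI group. For single chains no pair of TBI groups passed the limma test.

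Cd8a encodes the co-receptor of cytotoxic T cells and fell below the filter, with a mean of 0.0799 TPM. All 5 vehicle mice held 1 to 3 reads, and the sham mice 0 or 1. The vehicle mean was 0.0878 ± 0.0385 TPM (SD, n = 5) and the sham mean 0.0301 ± 0.0205 TPM (SD, n = 4), with an exact permutation p = 0.048, unadjusted. The highest number was 8 reads in PLX3397 mouse J19, in a group where 2 other mice held 0. Nkg7, which encodes a granule membrane protein of cytotoxic T and NK cells, had 9 reads in the same mouse and 8 and 6 reads in Anakinra mice J21 and J14. Its SD exceeded its mean in sham (0.185 ± 0.216 TPM, SD, n = 4), vehicle (0.246 ± 0.273, n = 5), PLX3397 (0.454 ± 0.515, n = 5) and Anakinra (0.424 ± 0.537, n = 5), and was close to it with the combination (0.296 ± 0.274, n = 5). No comparison of Nkg7 passed the limma test, the smallest adjusted p against sham being 0.38 with PLX3397.

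Cd2 encodes an adhesion receptor of T and NK cells. Unlike the granzymes, it was found in all 4 sham mice, with 0.260 ± 0.189 TPM (SD, n = 4). The vehicle mean was 0.156 ± 0.248 TPM (SD, n = 5), where mouse J17B held 5 of the 7 reads of the group. The PLX3397 mean was 0.361 ± 0.168 TPM, which differed from vehicle by 1.17 on the log2 scale (SE 0.45, limma adjusted p = 0.13). Without mouse J17B this difference passed the test (1.63, limma adjusted p = 0.0080), as did the lower level of vehicle against sham (-1.21, limma adjusted p = 0.019) and the higher level of the combination against vehicle (1.23, limma adjusted p = 0.034).

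Cd4 encodes the co-receptor of helper T cells and stood apart by its level. In sham mice it was at 16.0, 15.3, 15.1 and 15.8 TPM, in the same libraries in which Cd3e was at 0 and the 3 CD3 genes together had 3 reads. The vehicle mice had 17.5, 18.5, 15.4, 14.1 and 16.6 TPM. The PLX3397 mice had 18.3, 13.3, 17.3, 18.5 and 19.6 TPM, and the Anakinra mice 18.6, 15.7, 17.98, 14.1 and 16.9 TPM. The combination mice had 18.8, 15.6, 18.9, 21.2 and 21.97 TPM. Of these, 4 of 5 lay above every sham mouse, and J04 lay within the sham range. The log2 difference of the combination from sham was 0.30 (SE 0.11, limma adjusted p = 0.031), with an exact permutation p = 0.048. It was 0.07 for vehicle, 0.15 for PLX3397 and 0.09 for Anakinra, with limma adjusted p of 0.63, 0.29 and 0.52. The call was lost without sham mouse J08, J15 or J16 or combination mouse J10 or J17, with limma adjusted p between 0.054 and 0.085.

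The 3 genes whose levels were most like Cd4 over the 24 libraries, among 15774 genes whose mean reached 1 TPM, were Pcp4l1 (Pearson r = 0.83), Rgs9 (r = 0.80) and Drd2 (r = 0.80). With the group means subtracted, r was 0.85, 0.82 and 0.76. They were chosen for this likeness, and r is given as a description only. Rgs9 and Drd2, a regulator of G protein signalling and the dopamine D2 receptor, are known from striatal projection neurons. The means of Drd2 were 58.2 ± 5.01 TPM in sham, 58.8 ± 12.2 in vehicle, 59.6 ± 10.3 with PLX3397, 57.2 ± 5.79 with Anakinra and 70.6 ± 6.66 with the combination. Drd2 was higher by 0.28 on the log2 scale with the combination against sham, and did not pass the test (SE 0.13, limma adjusted p = 0.12). Over the same groups the microglial receptor gene Csf1r went from 61.2 ± 0.861 TPM in sham to 226 ± 22.9 in vehicle and 77.5 ± 5.67 with the combination, an order that Cd4 did not share. The part of striatal tissue in the level of Cd4 was not tested.

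**Figure D4:**
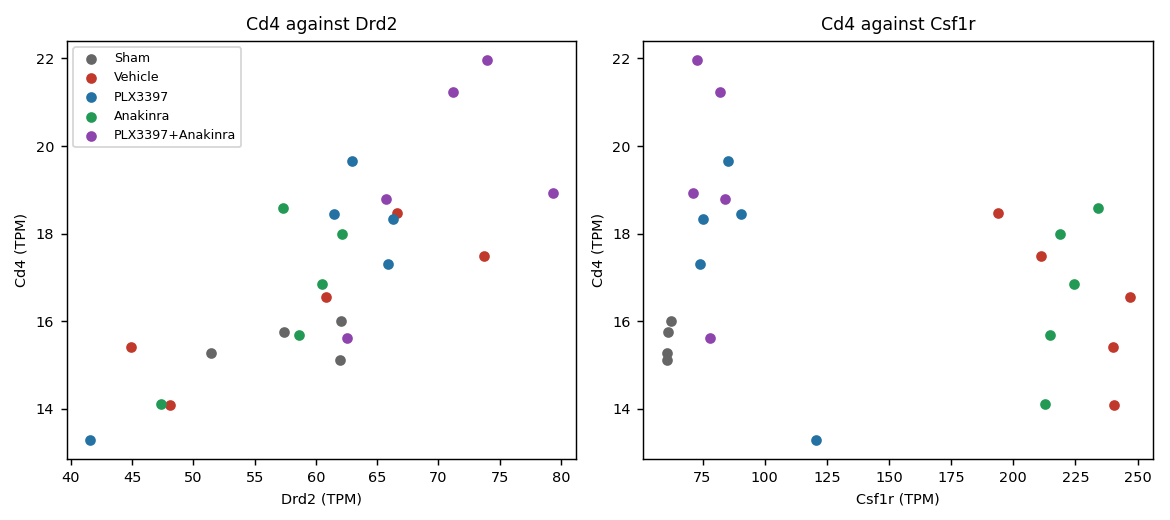
Cd4 (y axis, TPM) against Drd2 (left, TPM) and Csf1r (right, TPM), with 1 point per mouse coloured by group and axes that do not start at 0. Cd4 is higher in libraries with more Drd2, whereas Csf1r separates the vehicle and Anakinra mice, at 194 to 247 TPM, from the others at 60.5 to 120.5 TPM without a matching step in Cd4.

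Lck encodes the kinase that starts signalling at the T cell receptor. It was found in every library, including sham, where it stood at 1.10, 1.76, 1.57 and 1.04 TPM. The vehicle mice had 1.43, 1.69, 1.52, 1.67 and 1.51 TPM and the Anakinra mice 0.899, 1.32, 1.30, 1.16 and 1.17 TPM. These groups did not overlap, with an exact permutation p = 0.0079, the smallest that 5 against 5 mice allow, and a log2 difference of -0.40 (SE 0.17) whose limma adjusted p was 0.39. PLX3397 ranged from 0.976 to 1.71 TPM and the combination from 1.12 to 1.66 TPM, and no comparison of Lck passed the limma test. Most like Lck over the libraries were Gm39351 (r = 0.75), Ap1s3 (r = 0.72) and Spopl (r = 0.70), again as a description.

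Between the TBI groups, 0 of the 8 tested genes were called in limma in any of the 6 comparisons or in the interaction of the drugs. The background was 7.13% of all genes for PLX3397 against vehicle, 0.014% for Anakinra against vehicle, 13.5% for PLX3397+Anakinra against vehicle, 0.103% for the combination against PLX3397, 9.45% for the combination against Anakinra, 4.77% for PLX3397 against Anakinra and 0% for the interaction. At an unadjusted p below 0.05 limma gave Cd2 for PLX3397, Lck for Anakinra and Cd4 for the combination, each against vehicle. It gave Cd3e and Cd3g for the combination against PLX3397, and Cd3e, Cd4 and Gzmb for the combination against Anakinra. For PLX3397 against Anakinra it gave 0 genes, and for the interaction Cd2 and Cd3e. The share of all genes at an unadjusted p below 0.05 is not given, so unadjusted counts here and below have no background. limma-voom on the recovered reads also called 0 of 8 in each of these comparisons and in the interaction. Across the 100 exact permutation tests of 10 genes and 10 pairs of groups, 12 had a p below 0.05, and the smallest Benjamini-Hochberg adjusted value was 0.40.

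Further genes of the same cells were taken from lists, of which many members were also low or under the filter. Of 18 listed genes of the T cell receptor and its co-receptors 10 were tested, and 2 of these rose and 1 fell in vehicle against sham, against 22.8% of all genes higher and 22.1% lower. The costimulatory receptor gene Cd28 rose from 0.163 ± 0.0794 TPM in sham to 1.52 ± 0.597 in vehicle (log2 difference 2.60, SE 0.32, limma adjusted p = 3.1e-07), and Cd5 rose from 0.0902 ± 0.0994 to 0.692 ± 0.101 TPM (log2 difference 2.19, SE 0.34, limma adjusted p = 6.8e-06). Cd7 fell from 2.14 ± 0.446 to 1.12 ± 0.314 TPM (limma adjusted p = 0.0078). The constant segments Trac, Trbc1, Trbc2 and Trdc, named after their values were seen, are listed at 0 in all libraries, as are the immunoglobulin segments Ighm and Igkc. The authors' counting settings are not given, so these 0 values cannot tell missing transcripts from segments that were not counted.

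Of 16 tested T cell signalling and lineage genes, 7 rose and 1 fell in vehicle against sham, beside the same 22.8% of all genes higher and 22.1% lower. The interleukin-7 receptor gene Il7r rose from 0.203 ± 0.116 to 2.02 ± 0.490 TPM (log2 difference 2.88, SE 0.31, limma adjusted p = 2.3e-08). Of 17 tested cytotoxic and NK cell genes, 5 rose and 0 fell, a share of higher genes near that background. Ccl5, a chemokine gene of activated T cells and other leukocytes, rose from 0.362 ± 0.318 to 5.48 ± 1.34 TPM (log2 difference 3.94, SE 0.40, limma adjusted p = 1.1e-08), and Klrk1, the gene of the activating receptor NKG2D, from 0.0196 ± 0.0227 to 0.245 ± 0.117 TPM (limma adjusted p = 0.00056). Gzmk, a further granzyme gene, was at 0 in sham and had 8 reads in the vehicle mice (limma adjusted p = 0.0072). The median log2 difference was 0.09, 0.27 and 0.85 in these 3 lists, compared with -0.0025 over all genes tested.

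For genes of lymphocyte homing and of activation, the median log2 difference of vehicle against sham was 1.15 and 0.96. Of 12 homing and egress receptor genes, 10 rose, beside 22.8% of all genes higher, among them Cxcr4 (2.65 ± 0.437 to 14.9 ± 2.22 TPM). Of 12 tested genes of regulatory T cells and T cell activation, 7 rose and 5 were not called, the risen ones including the checkpoint receptor genes Pdcd1 (0.0706 ± 0.0602 to 1.72 ± 0.688 TPM), Lag3 (5.90 ± 0.427 to 27.5 ± 2.03 TPM) and Havcr2 (3.54 ± 0.947 to 21.6 ± 3.80 TPM) and the adhesion receptor gene Cd44 (1.44 ± 0.0939 to 21.04 ± 3.65 TPM). Havcr2 and Cd44 are also expressed by microglia and macrophages. Lag3 stood at 5.90 TPM in the sham libraries, in which the CD3 genes together had 3 reads. Which cells expressed the genes of these lists was not tested. Of the T cell cytokine genes, 2 of 9 passed the filter and 0 were called in vehicle against sham in limma (0 at an unadjusted p below 0.05), while Tnfsf11 was higher with Anakinra than in sham (limma adjusted p = 0.015).

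With PLX3397 against vehicle, 4 of 12 activation genes and 3 of 12 homing genes fell, against 4.83% of all genes lower. In the receptor, signalling and cytotoxic lists limma called 0 of 10, 0 of 16 and 0 of 17, and 2, 2 and 0 of them had an unadjusted p below 0.05. Havcr2 fell to 8.78 ± 1.13 TPM (log2 difference -1.28, SE 0.14, limma adjusted p = 1.1e-06), Cxcr4 to 9.96 ± 2.05 TPM (log2 difference -0.58, SE 0.14, limma adjusted p = 0.011) and Pdcd1 to 0.759 ± 0.257 TPM (limma adjusted p = 0.042). Ccl5 stood at 7.41 ± 2.93 TPM, compared with 5.48 ± 1.34 in vehicle.

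With PLX3397+Anakinra against vehicle, 2 of 10 receptor genes fell, 1 of 16 signalling genes, 1 of 17 cytotoxic genes, 4 of 12 activation genes and 5 of 12 homing genes, against 7.61% of all genes lower. Those in the first 3 lists were Cd5 (0.242 ± 0.113 TPM, limma adjusted p = 0.0081), Cd28 (0.593 ± 0.194 TPM, limma adjusted p = 0.0093), Il7r (0.700 ± 0.315 TPM, limma adjusted p = 0.00092) and Klrk1 (0.0642 ± 0.0477 TPM, limma adjusted p = 0.023). Each remained above its sham mean, and Cd28, Cd5 and Il7r also passed the test against sham. The shares of 1 of 16 signalling genes and 1 of 17 cytotoxic genes did not exceed the 7.61% of all genes lower. With Anakinra alone, 0 genes of these 5 lists were called against vehicle in limma, and 1 of 10, 2 of 16, 0 of 17, 1 of 12 and 4 of 12 had an unadjusted p below 0.05. Without the share of all genes at that threshold, these unadjusted counts are a description only.

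Markers of other cells were counted over the same comparisons, beside the shares of all genes given above. All 10 microglia and macrophage genes rose in vehicle against sham and all 10 fell with PLX3397 and with PLX3397+Anakinra against vehicle. Their summed level was 426 to 451 TPM in sham, 2362 to 3250 in vehicle, 1093 to 1674 with PLX3397, 2584 to 2953 with Anakinra and 956 to 1221 with the combination. Of 8 tested pan-leukocyte genes 7 rose and 1 fell in vehicle against sham, and 8 fell with PLX3397 and 7 with the combination against vehicle. The leukocyte gene Ptprc stood at 1.54 ± 0.312 TPM in sham, 14.6 ± 2.26 in vehicle, 7.31 ± 1.15 with PLX3397, 13.6 ± 1.08 with Anakinra and 4.70 ± 1.11 with the combination. Of 6 tested B cell genes 2 rose in vehicle against sham, Cd22 (0.117 to 5.29 TPM) and Cd79b (0.412 to 2.20 TPM). The same 2 fell against vehicle with PLX3397 (limma adjusted p = 0.0013 and 0.0076) and with PLX3397+Anakinra (8.1e-06 and 0.0021). Cd79a, Fcmr, Jchain and Mzb1 were not called in these comparisons. Their log2 differences with PLX3397 against vehicle were -0.74, -0.67, 0.18 and 0.82, so the list did not move in 1 direction. The B cell marker Ms4a1 stayed at or below 0.122 TPM in every group mean. Of 6 tested neutrophil genes 4 rose in vehicle against sham, with a summed level of 0.514 to 3.82 TPM in sham and 6.85 to 39.3 in vehicle. With PLX3397 against vehicle 1 of 6 fell, Mmp8 (log2 difference -0.684, limma adjusted p = 0.0247). S100a8, S100a9, Cxcr2 and Retnlg were higher than in vehicle without passing the test, and Ngp differed by -0.0278. The median log2 difference of the 6 genes in this comparison was 0.711, so the list as a whole did not fall. Dendritic cell genes gave 3 higher and 2 lower of 10 in vehicle against sham, close to the 44.9% of all genes called. With PLX3397 against vehicle limma called 0 of 10 (1 at an unadjusted p below 0.05). With PLX3397+Anakinra against vehicle 3 of 10 were lower, against 7.61% of all genes lower. The listed marker Itgax stood at 0.242 ± 0.0792 TPM in sham, 7.03 ± 1.85 in vehicle and 3.52 with the combination (limma adjusted p = 0.0033 against vehicle). Flt3 went the other way, at 7.29 ± 0.332 in sham, 4.79 ± 0.181 in vehicle and 5.27 with the combination (limma adjusted p = 0.49 against vehicle). All 8 neuron genes fell in vehicle against sham (summed level in sham 8020 to 8477 TPM, in vehicle 4794 to 5713). Against vehicle 3 of 8 were higher with PLX3397 and 6 of 8 with PLX3397+Anakinra. Of all genes, 7.13% and 13.5% were called there in either direction, and the share of higher genes alone is not given. The 5 red blood cell genes gave no call in vehicle against sham (0 at an unadjusted p below 0.05). All 5 fell against vehicle with PLX3397 and with PLX3397+Anakinra, from a summed level of 1507 to 4406 TPM in vehicle to 606 to 1072 and 725 to 951. The part of these cells in the T cell and cytotoxic genes was not tested.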

How the data were processed

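Brain tissue of 24 mice in 5 groups was analysed by bulk RNA sequencing, with 1 library per mouse. The authors trimmed and mapped the reads in CLC Genomics Workbench against the mouse genome (GRCm38 in the submitters' processing notes) and deposited gene expression as TPM for each mouse. Their counting settings, including the use of strand, are not given in the sources used here. The TPM of a gene were whole multiples of what 1 read is worth, so that counts were recovered for 28322 of 28322 detected genes (100%, within 0.03 of a whole number), with 22366394 to 31541213 reads per library. A second deposited table holds the same TPM rounded and was used as an alternative. Another table repeats TPM of some genes beside the authors' own fold changes and test results and was not used.

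TPM were tested as log2(TPM + 0.1) in limma 3.58.1 (R 4.3.3), with group means as the only terms, an eBayes trend and all 24 libraries, for the 21431 genes with a mean of 0.1 TPM or more. Fold changes on this scale understate the change of low genes. Differences in mean TPM were also tested by exact two-sided permutation (scipy 1.17.1), with a smallest possible p of 0.016 for 5 against 4 mice. The recovery of reads and the limma fit were tested on simulated data. The simulation for limma used normally distributed log values and not small read counts. All 10 genes are named, and of the other lists at most the 4 genes with the smallest p per list and comparison, fixed marker genes, and the 3 genes most like Cd4 and Lck. Genes and lists were chosen with earlier results of these data known. Alternatives were other pseudocounts, filters and scaling, eBayes without a trend or robust, the compared groups alone, the second table, a replicate block, each library left out, and limma-voom on the recovered reads, which was chosen after seeing the data. Sequences are from RefSeq (GRCm38.p6), where 8 of the 10 genes had a promoter entry.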

Additional observations from a re-analysis of the deposited data

Results flagged for a closer look

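In each group the highest and the lowest mouse were compared with the rest by Dixon's test. For normally distributed values the test picks about 1 in 20 groups by chance. That rate does not hold for small read counts, since a group with reads in only 1 mouse is always picked. The test is used here only to point at values, and the number picked cannot be judged against that rate. It picked 8 of the 48 groups with any spread, each time the highest mouse. Among the CD3 genes these were Cd3d in sham mouse J16 (0.0728 TPM, 1 read, with 0 in the others) and in PLX3397+Anakinra mouse J17 (0.0948 TPM, 1 read, with 0 in the others), and Cd3g in PLX3397+Anakinra mouse J10 (0.510 TPM, 4 reads, with 0 in the others). Cd8a stood out in PLX3397+Anakinra mouse J03 (0.197 TPM, 5 reads, with 0 or 1 read in the others). Cd2 stood out in vehicle mouse J17B (0.591 TPM, 5 reads, with 0 to 0.106 TPM in the others) and in Anakinra mouse J22 (0.430 TPM, 4 reads, with 0.213 to 0.273 TPM in the others). Nkg7 stood out in PLX3397 mouse J19 (1.37 TPM, 9 reads), the mouse that also held the most reads of Cd8a. Gzma stood out in sham mouse J16 (0.251 TPM, 2 reads, with 0 in the others). Each of these values rests on 9 reads or fewer.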

How the results depend on the processing

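No gene called in the main fit changed direction under the alternatives. Differences near 0 that were not called could change sign. Cd3g in PLX3397+Anakinra against sham, for example, was at -0.097 in limma and at 0.013 in limma-voom. A filter at a mean of 0.5 TPM left only Cd4 and Lck to test and gave 0 calls in vehicle, PLX3397 and Anakinra against sham and in the F test, and 1 in PLX3397+Anakinra against sham. A pseudocount of 1 gave 1 call in PLX3397+Anakinra against sham, where Gzma was lost (limma adjusted p = 0.11), and 0 in the F test. It also ended the call of Gzma in Anakinra against sham (limma adjusted p = 0.053), while the number of calls there stayed within 1.5 times. With only the compared groups in the fit, 1 gene (Gzmb, limma adjusted p = 0.049) was called in PLX3397+Anakinra against Anakinra. A pseudocount of 0.01 ended the call of Gzmb in Anakinra against sham (limma adjusted p = 0.067). With each library left out in turn, calls ranged from 1 to 2 in vehicle, 2 to 3 in PLX3397, 2 to 3 in Anakinra and 1 to 2 in PLX3397+Anakinra against sham, from 0 to 1 in PLX3397 against vehicle, from 0 to 1 in PLX3397+Anakinra against vehicle and from 1 to 3 in the F test. Without vehicle mouse J18B or J20B Cd3e was also called in vehicle against sham (limma adjusted p = 0.042 and 0.041), as was Gzmb without J19B (0.041). Without PLX3397 mouse J12 Cd3g was called in PLX3397 against sham (0.046), and without J04 Cd4 in PLX3397+Anakinra against vehicle (0.044). The calls of Gzma in vehicle and PLX3397 against sham and of Cd3e in PLX3397 and Anakinra against sham held in every setting in which these genes were tested. Vehicle and PLX3397 share 3 animal numbers, whose deviations from the group means correlated at 0.075, -0.0010 and -0.045. With means over only 3 mice per group, these correlations cannot decide whether the shared numbers pair the mice. A replicate block over these 3 numbers gave 0 members called in PLX3397 against vehicle, and 356 genes in all compared with 569 in the same 6 libraries without the block. Depth limits the 8 low genes, for which 1 read more or less in a library changes the value.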
